A study of Mus musculus with 32 samples.

Results

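The somata of Mettl3 KO hippocampal neurons were compared with and without depolarization by KCl, in 4 RNA-seq libraries of the 32 samples in the series (16 RNA-seq and 16 DART-seq libraries). The members were the libraries that the labels give as KO soma RNA, 2 from untreated (Ctrl) and 2 from KCl-treated cultures, numbered as replicates 1 and 2. The neurons came from newborn Mettl3 flox/flox mice and were grown on a porous membrane, so that the soma fraction could be scraped from the top and the neurites from the bottom. All cultures, including the C57BL/6 (WT) neurons used for comparison, received AAV-hSyn-Cre-P2A-dTomato at day in vitro (DIV) 7 at 50000 viral genomes per cell. All were then silenced for 16 h from DIV14 with 1 µM TTX, a sodium channel blocker, and 50 µM D-AP5, an NMDA receptor antagonist. KCl was given at 55 mM for 2 h on DIV15, and Ctrl cultures received no KCl. Several features limit these cultures as a model. The hSyn promoter drives Cre in neurons, so other cells in the dish keep Mettl3. Each culture pooled pups of both sexes from 1 litter, replicates came from different litters, and Ctrl and KCl cultures were made from the same litter. Cultures with the same replicate number are taken here to share a litter, which the labels do not state. The soma fraction can also hold neurites that did not pass through the membrane.

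Raised extracellular potassium depolarizes neurons and lets calcium enter through voltage-gated channels. The calcium signal reaches kinases and the transcription factors CREB, SRF and MEF2, which switch on immediate early genes without new protein synthesis. Many of those genes encode transcription factors, and later genes encode secreted peptides, synaptic proteins and inhibitors of the signal. METTL3 is the catalytic subunit of the complex that writes m6A into mRNA, a mark bound by YTH proteins and linked to mRNA decay, export and translation.

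Mettl3 (ENSMUSG00000022160, GRCm38 chr14:52294841-52305128) was at 9.83 and 13.0 CPM (counts normalized to library size) in Ctrl replicates 1 and 2, and at 9.59 and 6.92 CPM in KCl replicates 1 and 2. On a scale fitted over all 8 soma libraries, the KO libraries lay between 6.66 and 12.6 CPM and the WT libraries between 14.02 and 18.65 CPM. The KO libraries were therefore lower than each WT library. The counts cover all exons of the gene and not the deleted part alone, so they do not measure how complete the deletion was.

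The regulatory sequence just upstream of 6 of the genes that were high with KCl is shown first, because each carries the core letters of the cyclic AMP response element, the site CREB binds. The core was searched as the 5 bases TGACG, or CGTCA for the same letters on the other strand, and is in capitals. The sequences are RefSeq's, build GRCm38.p6, and hold the 250 bases before the start site, 5′ to 3′ on the strand of the gene.
Nr4a1, chr15:101266596-101266845, plus strand: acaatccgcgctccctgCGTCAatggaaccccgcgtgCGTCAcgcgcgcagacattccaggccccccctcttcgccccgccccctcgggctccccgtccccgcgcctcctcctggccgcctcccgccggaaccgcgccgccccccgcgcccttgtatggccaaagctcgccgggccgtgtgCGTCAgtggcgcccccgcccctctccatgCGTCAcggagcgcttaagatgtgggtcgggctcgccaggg
Nr4a2, chr2:57124004-57124253, minus strand: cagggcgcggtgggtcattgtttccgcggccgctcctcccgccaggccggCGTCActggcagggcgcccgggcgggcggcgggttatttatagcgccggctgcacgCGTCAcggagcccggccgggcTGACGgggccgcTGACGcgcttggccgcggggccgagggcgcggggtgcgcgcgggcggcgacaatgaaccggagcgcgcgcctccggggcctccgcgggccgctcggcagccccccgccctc
Fosb, chr7:19310046-19310295, minus strand: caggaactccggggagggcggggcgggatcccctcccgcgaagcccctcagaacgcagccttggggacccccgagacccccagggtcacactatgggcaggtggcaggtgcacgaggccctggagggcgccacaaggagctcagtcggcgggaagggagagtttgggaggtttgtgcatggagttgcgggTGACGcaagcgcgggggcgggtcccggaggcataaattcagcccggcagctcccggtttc
Npas4, chr19:4989972-4990221, minus strand: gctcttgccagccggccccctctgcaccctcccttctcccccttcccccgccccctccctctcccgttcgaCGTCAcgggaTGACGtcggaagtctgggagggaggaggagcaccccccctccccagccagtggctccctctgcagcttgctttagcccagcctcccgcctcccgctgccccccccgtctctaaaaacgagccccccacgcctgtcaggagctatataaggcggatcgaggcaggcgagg
Fos, chr12:85473640-85473889, plus strand: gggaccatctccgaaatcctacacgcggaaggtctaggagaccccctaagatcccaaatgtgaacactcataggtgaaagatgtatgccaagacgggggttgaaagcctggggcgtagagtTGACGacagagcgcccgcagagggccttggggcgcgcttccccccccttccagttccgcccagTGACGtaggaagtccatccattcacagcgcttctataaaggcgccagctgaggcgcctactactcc
Pcsk1, chr13:75089607-75089856, plus strand: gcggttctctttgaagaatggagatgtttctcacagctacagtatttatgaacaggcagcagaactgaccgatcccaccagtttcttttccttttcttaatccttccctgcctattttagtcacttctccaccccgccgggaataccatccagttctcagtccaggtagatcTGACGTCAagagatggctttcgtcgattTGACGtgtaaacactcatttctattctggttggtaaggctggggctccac

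Nr4a1 and Nr4a2 each held 4 cores, Fos and Npas4 held 2, Fosb held 1 and Pcsk1 held 3. In Pcsk1 the cores at positions -78 and -75 from the start site overlap and form the full element TGACGTCA, which reads the same on both strands. The core was in 17.8% of all 32851 promoters in the table, and in 26% of the promoters of genes with a mean of at least 100 counts in these 4 libraries. It was in 65.6% of the 32 promoters matched for the transcription factors described below (21 of 28 genes matched), and in 57.1% of the 14 promoters of the synaptic and signalling effectors (13 of 20 genes matched). The full element was in only 1 of those 32 promoters (3.12%) and 1 of those 14 (7.14%). It was in 2.58% of the promoters of genes with a mean of at least 100 counts. These are matches of letters, and no binding was measured.

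The 4 libraries held 41530537 counts in Ctrl replicate 1, 48835145 in Ctrl replicate 2, 59866795 in KCl replicate 1 and 45457348 in KCl replicate 2. Replicates of the same treatment were far apart. The SD over 23679 genes of the log2 ratio between replicates was 1.07 in Ctrl and 1.12 in KCl, against 0.331 and 0.51 for WT soma. KCl replicate 1 and Ctrl replicate 2 each stood apart from the other 3 libraries.

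KCl replicate 1 held far more RNA of glia and dividing cells. The 9 markers of the oligodendrocyte lineage summed to 3961 CPM there and to between 96.7 and 120 CPM in the other 3 libraries. The 8 microglia markers summed to 512 CPM against 25.7 to 37.8, the 11 astrocyte markers to 10410 against 2379 to 2973, and the 8 genes of dividing cells to 379 against 12.5 to 15.4. Gfap made up 6935 CPM of that astrocyte sum. KCl replicate 2 was above KCl replicate 1 for 1 of the 11 astrocyte markers, Sox9, and Slc1a2 was highest in Ctrl replicate 1. The sums of neuron markers went the other way. The 10 neuron markers summed to 2732 CPM in KCl replicate 1 against 4930 to 7126 CPM in the other libraries, and the 9 interneuron markers to 518 against 1657 to 2014. All 10 neuron markers were lower in KCl replicate 1 than in KCl replicate 2. Among them, Nefl was still above both Ctrl libraries there, at 687 CPM against 365 and 410 CPM. The 12 markers of fibroblasts and vascular cells summed to 164 CPM in KCl replicate 1 and to 25.5 to 66.3 CPM in the others. In bulk RNA, fewer cells of a type and less RNA per cell cannot be told apart. No marker of any of these lists was at 0 in any library, and the neuron markers Map2, Snap25, Syn1 and Camk2a had between 148 and 1547 CPM in all 4, so neuronal RNA was present in each.

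**Figure D1:**
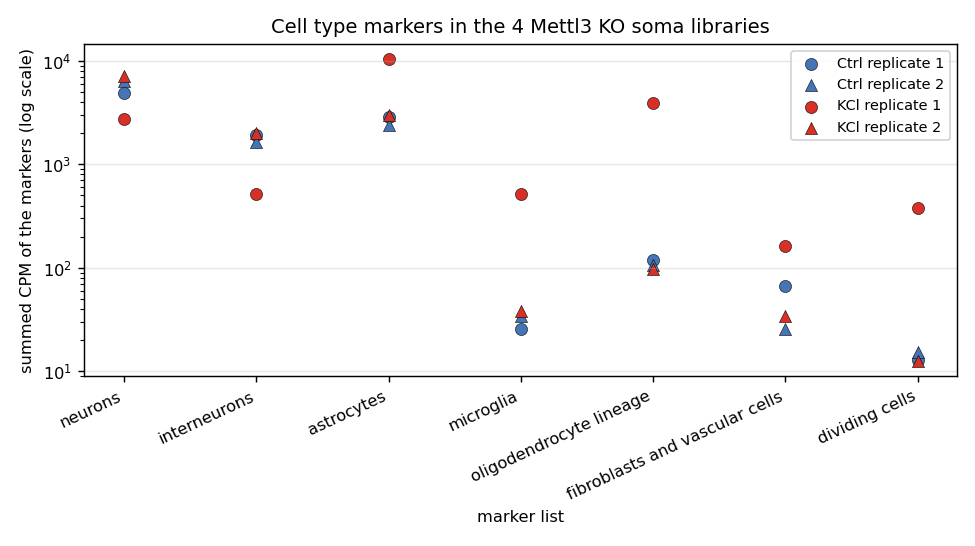
Summed CPM (log axis) of the markers of 7 cell types in the 4 Mettl3 KO soma libraries, 1 point per library. KCl replicate 1 is the highest library for astrocytes, microglia, the oligodendrocyte lineage, fibroblasts and vascular cells and dividing cells, and the lowest for neurons and interneurons.

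Ctrl replicate 2 was low in short genes. Over the 1406 genes with 251 to 500 bases of exon, its median log2 ratio to Ctrl replicate 1 was -1.36, and over the 6755 genes of 2001 to 4000 bases it was 0.21. The cytosolic ribosomal protein genes, which are short, summed to 4642 CPM in Ctrl replicate 2 and to 15430, 14050 and 13280 CPM in Ctrl replicate 1 and the KCl replicates. The nuclear-encoded respiratory chain genes summed to 10030 CPM there and to between 13410 and 20790 CPM in the other libraries. Median changes of 2.46 for the 82 ribosomal protein genes and 2.38 for the 89 respiratory chain genes in replicate pair 2 stood beside -0.12 and -0.54 in pair 1, so both lists moved with 1 Ctrl library and not with KCl in both pairs.

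**Figure D2:**
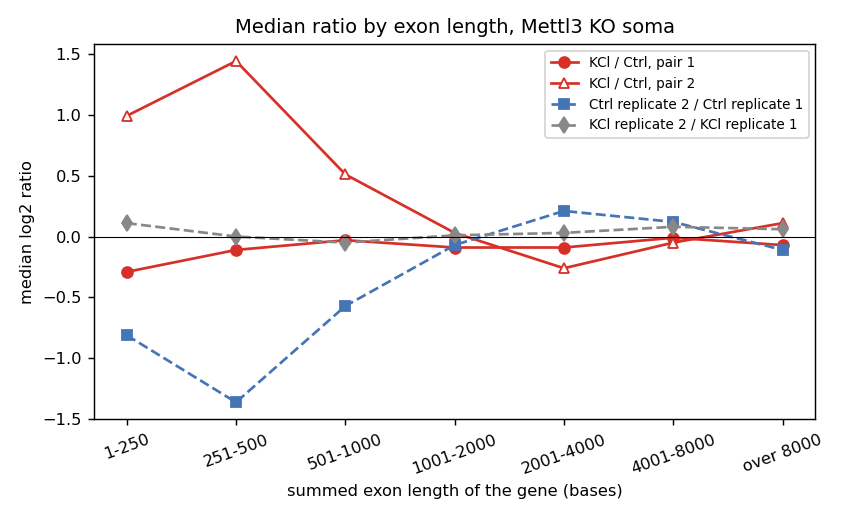
Median log2 ratio of genes in 7 bins of summed exon length, for KCl over Ctrl in each replicate pair and for Ctrl replicate 2 over Ctrl replicate 1. For genes of 251 to 500 bases pair 2 is at 1.44 and the ratio of the Ctrl libraries at -1.36, while pair 1 stays between -0.29 and -0.01.

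Against that spread, the 4 libraries alone passed no gene through edgeR's quasi-likelihood test at an adjusted p of at most 0.05 and at least 2-fold. The counts were 0 higher and 0 lower of 23679 genes (0% in each direction), and 1909 genes (8.06%) had an unadjusted p of at most 0.05, of which 1212 were at least 2-fold higher (5.12%) and 697 at least 2-fold lower (2.94%). With the replicate number as a block in the model, taken to mark the litter, 3 genes passed, all of them higher (0.0127%). They were Nr4a2, Nr4a1 and Fosb. Without adjustment the block fit had 1169 genes higher (4.94%) and 883 lower (3.73%) at those limits. DESeq2 on the same libraries, with neither block nor length correction, called 324 higher (1.55% of 20924 genes with an adjusted p) and 56 lower (0.268%). Of its 324 higher calls, 29 were flat or lower in pair 2. A further rule, chosen after the data were seen, asked that both KCl libraries lie at least 2-fold above or below both Ctrl libraries, and is called "2-fold apart" in what follows. It was met by 564 genes higher (2.38%) and 479 lower (2.02%), and 202 of the 324 higher and 42 of the 56 lower DESeq2 calls met it. With no margin, 4355 genes (18.4%) had both KCl libraries above both Ctrl libraries and 4371 (18.5%) had both below.

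The pairs also disagreed across the transcriptome. The log2 changes of pairs 1 and 2 had opposite signs in 10043 genes (42.4%), and their correlation across genes, which are not independent replicates, was 0.23. Of 15402 genes with a mean of at least 100 counts, 139 were at least 4-fold higher in both pairs and 18 at least 4-fold lower in both. By contrast, 424 were at least 4-fold higher in pair 1 and within 1.5-fold in pair 2, and 780 the reverse.

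**Figure D3:**
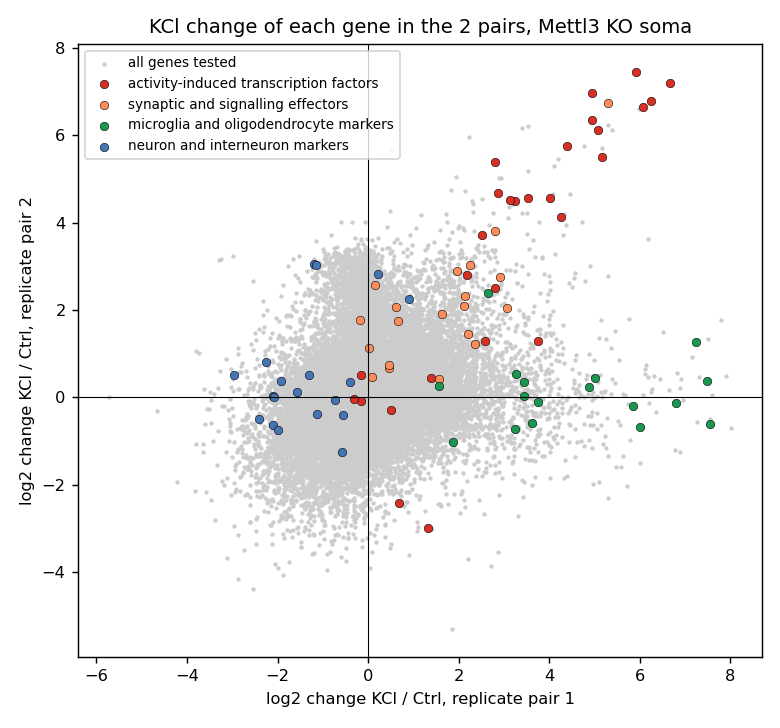
Log2 change KCl over Ctrl of each of 23679 genes in replicate pair 1 (x axis) and pair 2 (y axis), with genes of the response and marker lists in colour. Most activity-induced transcription factors lie high on both axes. Microglia markers have medians of 3.60 in pair 1 and 0.14 in pair 2, and oligodendrocyte lineage markers have medians of 6.00 and -0.12.

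Activity-induced transcription factors were the response list with the highest median in both pairs. Of the 28 in the list, 3 passed edgeR's test with the block and 0 without it. DESeq2 called 20 higher, against 1.55% of all genes. There were 21 that were 2-fold apart, all 21 of them higher, against 2.38% of all genes. The median log2 change of the list was 4.02, with 3.19 in pair 1 and 4.50 in pair 2, beside 0.02 over all genes tested. Their levels summed to 808 and 1671 CPM in the Ctrl libraries and to 8162 and 26460 CPM in the KCl libraries.

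Nr4a2, an orphan nuclear receptor, was at 6.15 and 9.41 CPM in the Ctrl libraries and at 629 and 1382 CPM in the KCl libraries. The KCl libraries lay far above either Ctrl library. Its log2 change was 7.01 ± 0.80 (SE), with an adjusted p of 0.136 in edgeR's quasi-likelihood test and of 0.0449 with the block, and between 2.22e-29 and 1 over 14 alternatives. Nr4a1, of the same receptor family, had 7.73 and 10.9 CPM in Ctrl and 520 and 1102 CPM with KCl. It rose by 6.44 ± 0.76 on the log2 scale in the fit with 4 libraries, and its adjusted p in edgeR's test with the block was 0.0449 (1.21e-24 to 1 over the alternatives). Fosb, an AP-1 subunit, had 1.84 and 4.31 CPM in Ctrl and 142 and 477 CPM with KCl, a log2 change of 6.65 ± 0.89, and the same adjusted p of 0.0449 with the block in edgeR's test (2.35e-25 to 1).

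Further AP-1 subunits showed the same separation of the treatments. Fos was at 41.7 and 68.9 CPM in Ctrl and at 1409 and 4790 CPM with KCl, a log2 change of 5.81 ± 0.93. Junb was at 84.1 and 212 CPM in Ctrl and at 1362 and 5040 CPM with KCl. Fosl2, Fosl1 and Jun were also 2-fold apart, with log2 changes of 3.97, 3.35 and 2.61. Jund, an AP-1 subunit that resting cells also make, had 15.3, 261, 24.8 and 49.1 CPM in Ctrl 1, Ctrl 2, KCl 1 and KCl 2, so that its groups overlapped and Ctrl replicate 2 was the highest library.

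Npas4, a factor that is largely specific to neurons and to calcium entry, was at 13.2 and 13.7 CPM in Ctrl and at 795 and 2402 CPM with KCl. Its log2 change was 6.89 ± 0.88. The zinc finger factors of the Egr family were high as well. Egr1 was at 97.6 and 88.8 CPM in Ctrl and at 677 and 3689 CPM with KCl, and Egr2, Egr3 and Egr4 had log2 changes of 5.35, 4.07 and 4.14. In KCl replicate 2 all 4 were above their level in KCl replicate 1. Atf3, a stress-responsive factor related to CREB, had 7.18 and 6.85 CPM in Ctrl and 223 and 861 CPM with KCl, and Maff, a small Maf protein, 2.703 and 2.644 against 84.1 and 217 CPM. Crem, which gives rise to the CREB repressor ICER, was at 6.70 and 7.62 CPM in Ctrl and at 40.6 and 18.8 CPM with KCl, and no fit called it. Myc was 2-fold apart too, but at 77.8 CPM in KCl replicate 1 and 14.1 CPM in KCl replicate 2. Crem and Myc thus had KCl replicate 1 above KCl replicate 2, as the sums of the glial markers had. Those sums were not 2-fold apart. In KCl replicate 2 the microglia sum was 37.8 CPM, against 25.7 and 34.1 CPM in Ctrl. A glial part in Crem and Myc was not tested. The 7 members that were not 2-fold apart were Srf, Klf10, Mef2c, Mef2d, Ier5, Jund and Klf2. Srf and the Mef2 genes encode factors that act upstream of this response, and their log2 changes were 0.77, -0.11 and -0.14.

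**Figure D4:**
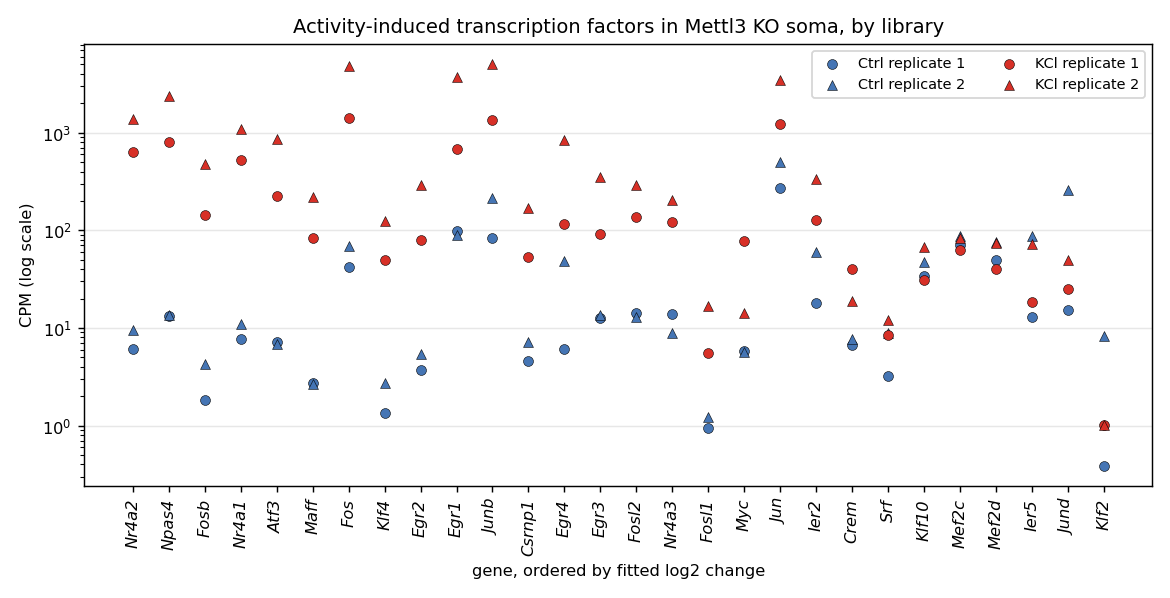
CPM (log axis) of the 28 activity-induced transcription factors in the 4 Mettl3 KO soma libraries, 1 point per library, ordered by fitted log2 change. For 21 genes both KCl libraries lie at least 2-fold above both Ctrl libraries, and KCl replicate 2 is above KCl replicate 1 for 25 of the 28.

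Levels of these factors differed between the replicates of both treatments. KCl replicate 2 was above KCl replicate 1 for 25 of the 28 factors, with a median ratio of 2.62. Ctrl replicate 2 was likewise above Ctrl replicate 1 for 22 of the 28, with a median ratio of 1.49 and a ratio of sums of 2.07. The ratio of the sums in the KCl libraries was 3.24, and that of the neuron markers in the same libraries was 2.61. The part of the glial RNA in that gap was not tested.

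Synaptic and signalling effectors of activity were mostly higher with KCl, 19 of 20 in both pairs and 0 lower in both. Over all genes tested, 27.5% were higher in both pairs and 30.1% lower in both. Of the 20 genes, 9 were 2-fold apart and higher, against 2.38% of all genes. DESeq2 called 7 higher, against 1.55% of all genes, and edgeR's test passed 0 with or without the block. Their median log2 change was 1.83. Arc, which drives endocytosis of AMPA receptors, was at 18.3 and 32.3 CPM in Ctrl and at 719 and 3426 CPM with KCl, a log2 change of 6.36 ± 1.02. The treatments did not overlap. Homer1, a scaffold of the postsynaptic density, was at 18.6 and 32.8 CPM in Ctrl and at 85.9 and 90.4 CPM with KCl, and no fit called it. Rgs2, an inhibitor of G protein signalling, Plat, a secreted protease, Pcdh8, a cadherin, and Tiparp, an ADP-ribosyltransferase, had log2 changes of 2.52, 2.24, 2.11 and 3.44. Ptgs2, the inducible prostaglandin synthase, was low in level but 2-fold apart, at 0.311 and 0.229 CPM in Ctrl and at 1.63 and 2.15 CPM with KCl, a log2 change of 2.80. Nptx2, a secreted pentraxin that gathers AMPA receptors, was nearly flat at 10.7 and 10.4 CPM in Ctrl and 11.4 and 14.4 CPM with KCl.

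Secreted peptides and growth factors had a median log2 change of 0.09, close to that of all genes. Of the 25, 2 were 2-fold apart and higher, both of which DESeq2 also called, against 2.38% and 1.55% of all genes. Pcsk1, the convertase that cuts prohormones, was at 3.04 and 3.41 CPM in Ctrl and at 80.9 and 56.0 CPM with KCl, a log2 change of 4.41 ± 0.55. Bdnf, a neurotrophin, was at 11.6 and 10.03 CPM in Ctrl and at 68.5 and 100 CPM with KCl. In both genes the treatments were clearly separate. Peptides of interneurons followed the libraries instead. Sst was at 57.7 and 4.73 CPM in the Ctrl libraries and at 25.3 and 39.4 CPM with KCl, and Npy at 16.5 and 2.39 against 7.43 and 20.01 CPM. Vgf, a granule protein, was at 79.8 and 102 CPM in Ctrl and at 166 and 529 CPM with KCl, Inhba, an activin subunit, had a log2 change of 1.33 ± 0.80, and Scg2, a granin, one of 0.21 ± 0.55.

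Feedback inhibitors of kinase signalling had 9 of 20 genes 2-fold apart and higher, against 2.38% of all genes. DESeq2 called 7 of 20 higher, against 1.55% of all genes, and the median log2 change was 1.33. Dusp1, a nuclear MAP kinase phosphatase, was at 21.6 and 32.3 CPM in Ctrl and at 196 and 692 CPM with KCl, a log2 change of 4.04 ± 0.76. Trib1, a pseudokinase, had 8.76 and 5.23 CPM in Ctrl and 102 and 393 CPM with KCl. Sik1, a kinase that holds back CREB coactivators, had a log2 change of 2.38, and Dusp4, Dusp10, Dusp16, Spry1, Spry2 and Rrad had changes of 1.66 to 3.64. Of these, Dusp16 was at 37.4 CPM in KCl replicate 1 and 14.6 CPM in KCl replicate 2. Pcsk1 and the sums of the glial markers had the same order of the KCl libraries. Dusp2 and Dusp8 lay below Ctrl in both pairs, with log2 changes of -1.75 and -1.17, and neither was called.

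Among 10 genes of growth arrest and DNA damage, Gadd45g, Gadd45b and Btg2 were 2-fold apart and called higher by DESeq2. Over all genes, 2.38% were 2-fold apart and higher, and DESeq2 called 1.55% higher. Gadd45g was at 27.9 and 26.5 CPM in Ctrl and at 510 and 1163 CPM with KCl, Gadd45b at 31.8 and 28.3 against 125 and 416 CPM, and Btg2 at 40.9 and 62.5 against 287 and 829 CPM. The GADD45 proteins take part in DNA demethylation and stress signalling, and BTG2 in arrest of the cell cycle and mRNA deadenylation. Of 19 clock genes, Nfil3, Per1 and Per2 were 2-fold apart and called higher by DESeq2, beside those same shares of all genes. Per1, a core repressor of the clock with a CREB-responsive promoter, was at 23.4 and 20.9 CPM in Ctrl and at 82.8 and 157 CPM with KCl. The median of the clock list was 0.32.

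Of 15 Notch, Hes, Hey and Id genes tested, Id1, an inhibitor of basic helix-loop-helix factors, was 2-fold apart, at 1.34 and 0.854 CPM in Ctrl and 20.2 and 3.20 CPM with KCl, and DESeq2 called Id1 and Id3 higher. Both were highest in KCl replicate 1. Over all genes, 2.38% were 2-fold apart and higher, and DESeq2 called 1.55% higher. Hes5, a Notch target of neural progenitors, was below Ctrl in both pairs, at 2.27 and 7.83 CPM in Ctrl and 1.32 and 0.978 CPM with KCl, and no fit called it. Heat shock and stress genes had a median change of 0.89, with Bag3, a chaperone partner, and Atf4, a factor of the integrated stress response, 2-fold apart. Bag3 was at 5.07 and 4.21 CPM in Ctrl, 35.8 CPM in KCl replicate 1 and 13.2 CPM in KCl replicate 2. The sums of the glial markers had the same order of the KCl libraries. The endoplasmic reticulum chaperone Hspa5 was at 1189 and 1052 CPM in Ctrl and at 2372 and 4012 CPM with KCl. The 20 glycolysis enzymes and glucose transporters had a median log2 change of -0.34, with -0.57 in pair 1 and -0.17 in pair 2. Of these, 11 were lower in both pairs and 3 higher in both, where 30.1% and 27.5% of all genes were. Against that direction, Slc2a3, the neuronal glucose transporter, was 2-fold apart and higher, at 381 and 233 CPM in Ctrl and 800 and 1585 CPM with KCl.

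Genes of membrane excitability had no call by edgeR or DESeq2, where few genes of any kind had one. Over all genes, edgeR called 0% without the block, and DESeq2 called 1.55% higher and 0.268% lower. In lists of 22 and 29 genes, 0 calls thus do not stand out. The 22 receptor subunits for glutamate and GABA had a median log2 change of -0.26. Of them 0 were 2-fold apart, against 2.38% higher and 2.02% lower of all genes. The 29 voltage-gated potassium and HCN channels had a median of -0.56, with 18 lower in both pairs and 1 higher in both. Of all genes tested, 30.1% were lower in both pairs and 27.5% higher in both. Their medians were -0.98 in pair 1, which holds the KCl library low in neuron markers, and -0.28 in pair 2. The median of the 10 neuron markers was likewise -0.94 in pair 1 and -0.22 in pair 2.

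Of the 15 m6A writers, readers and demethylases, Ythdc1 was 2-fold apart, and neither edgeR's test nor DESeq2 called any. Over all genes, 2.38% were 2-fold apart and higher, and DESeq2 called 1.55% higher and 0.268% lower. These counts thus do not stand out in 15 genes. Ythdc1, the nuclear m6A reader, was at 32.1 and 36.5 CPM in Ctrl and at 73.6 and 85.5 CPM with KCl. Ythdf3, a cytoplasmic reader, was at 22.5 and 21.1 CPM in Ctrl and at 47.7 and 43.3 CPM with KCl. The cytoplasmic reader Ythdf1 went the other way, at 37.9 and 74.8 CPM in Ctrl and at 21.5 and 26.2 CPM with KCl. Mettl14, the partner of METTL3, had values of 14.1, 25.9, 26.3 and 14.5 CPM in Ctrl 1, Ctrl 2, KCl 1 and KCl 2.

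The noncoding gene 1700016P03Rik (GRCm38 chr11:75172560-75177633), which contains the miR-212 and miR-132 hairpins, was among the 5 smallest p-values that the gene rule added. It was at 0.670 and 0.978 CPM in Ctrl and at 29.5 and 70.3 CPM with KCl, a log2 change of 5.91 ± 0.71. The reads on the hairpins come from longer RNA, since the libraries do not hold mature miRNAs. The 3p arms are shown because they share their seed, bases 2 to 8 in capitals, and so pair with the same sites in mRNAs. Both are RefSeq sequences on GRCm38.p6, plus strand.
mmu-miR-212-3p, chr11:75173443-75173464: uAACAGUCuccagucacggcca
mmu-miR-132-3p, chr11:75173723-75173744: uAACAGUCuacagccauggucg

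Pim1, a serine/threonine kinase, was also named by its small p, at 0.622 and 0.833 CPM in Ctrl and 25.9 and 66.0 CPM with KCl. The genes whose change differed most between the pairs were Bcas1, Mag, Cldn11, Cdk1 and Neu4, of which Bcas1, Mag and Cldn11 belong to oligodendrocytes and their myelin and Cdk1 drives mitosis. Mag was at 0.742, 0.770 and 0.489 CPM in Ctrl 1, Ctrl 2 and KCl 2, and at 146 CPM in KCl 1. The other 4 were likewise high in KCl replicate 1 alone, at 12.4 to 234 CPM.

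Among well-counted genes, fewer were clearly lower with KCl than higher. Of the genes with a mean of at least 100 counts, 109 were 2-fold apart and lower and 298 higher. Zinc finger proteins with symbols beginning in Zfp, Zscan, Zkscan, Zbtb, Zik or Zim were looked at after the values were seen. They made up 28 of the 109, which is 7.04% of the 398 such genes at that level, against 0.708% of all 15402 genes. Zinc finger genes with other symbols, such as the Egr family, were not in that count. Zfp157 was at 27.0 and 29.1 CPM in Ctrl and at 8.07 and 6.70 CPM with KCl, and Zfp87 at 16.0 and 19.8 against 4.72 and 3.32 CPM. Both had little spread within a treatment. Cell surface genes were among the others, chosen after their values were seen. Lrfn1, a synaptic adhesion protein, was at 13.0 and 54.4 CPM in Ctrl and at 2.94 and 6.18 CPM with KCl, and Rtn4r, the Nogo receptor, at 13.9 and 47.7 against 3.08 and 6.28 CPM. For both, Ctrl replicate 2 was more than 3 times Ctrl replicate 1. DESeq2 called Zfp87, Lrfn1 and Rtn4r lower and left Zfp157 just outside, at an adjusted p of 0.0502.

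The authors' table of m6A sites, called by DART-seq, listed at least 1 site for 3.67% of the 109 lower genes, for 39.9% of the 298 higher genes and for 35.5% of the 15402 genes. By the paper's methods, a site was kept only where editing was higher in WT than in Mettl3 KO samples. The sites thus label genes by methylation in WT neurons and do not give the m6A state of RNA in these KO libraries. A site needs read coverage to be called, and genes with more sites had more counts, with medians of 563 for genes with 0 sites and 5430 for genes with 6 or more. The share of genes that were 2-fold apart and higher was 1.8% at 0 sites and 2.16% at 6 or more, and that of lower genes 1.06% and 0%. The CRE core was in 42.1% of the 259 promoters matched for higher genes and in 18.5% of the 65 matched for lower genes, and the full element was in 6.95% and 3.08% of them. Of the promoters of all genes with a mean of at least 100 counts, 26% held the core and 2.58% the full element.

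WT soma, with libraries of its own, gave a reference for the same treatment. On the 4 WT libraries alone, edgeR's quasi-likelihood test called 1014 genes higher (4.21%) and 877 lower (3.65%) of 24060. Of the 957 WT-higher genes that were tested in KO, 814 (85.1%) were higher in both KO pairs and 364 (38%) were 2-fold apart in KO, all of them higher. Their median log2 change was 1.46 in KO and 1.78 in WT. Of the 851 WT-lower genes, 668 (78.5%) were lower in both KO pairs and 219 (25.7%) were 2-fold apart, and the medians were -1.23 and -1.43. Over all genes 27.5% were higher and 30.1% lower in both KO pairs. The 2-fold apart rule was met in WT by 854 genes higher (3.55%) and 641 lower (2.66%). Over the 22714 genes tested in both genotypes, 343 were higher by it in KO and WT, which is 66.3% of the KO genes and 44.3% of the WT genes. For lower genes 187 were shared, 42.4% of the KO genes and 31.8% of the WT genes.

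**Figure D5:**
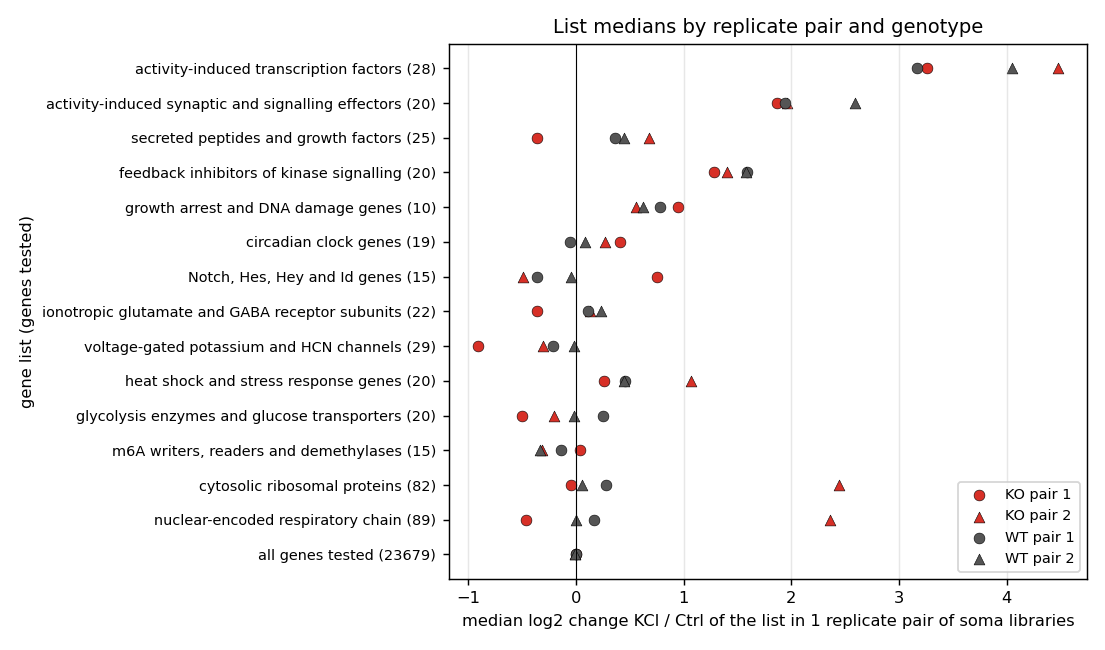
Median log2 change KCl over Ctrl of each gene list in the 2 replicate pairs of Mettl3 KO soma and of WT soma, with the number of genes tested. The transcription factors lie between 3.17 and 4.48 in all 4 pairs. The KO pairs are farther from each other than the WT pairs for most lists, and most of all for the ribosomal protein and respiratory chain lists. For the synaptic and signalling effectors the WT pairs are farther apart, at 1.94 and 2.59 against 1.87 and 1.96 in KO.

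The difference between the KO and WT responses was tested over the 8 soma libraries. The fits took 1 spread per gene for both genotypes. KO replicates were farther apart than WT replicates, with SDs of 1.07 and 1.12 against 0.331 and 0.51. The standard errors, intervals and p-values of the difference can therefore be too small for the KO part. In edgeR's quasi-likelihood test of the interaction, 0 of 24058 genes passed in either direction (0%), with or without the block, and 586 (2.44%) had an unadjusted p of at most 0.05, with 312 at least 2-fold larger (1.3%) and 258 at least 2-fold smaller (1.07%) in KO. DESeq2 called 0 genes larger and 1 smaller in KO, Ccn1, a matrix protein and target of SRF and YAP. Ccn1 was at 21.7 and 22.6 CPM in KO Ctrl and 185 and 93.0 CPM in KO KCl, against 4.02 and 4.34 CPM in WT Ctrl and 304 and 286 CPM in WT KCl. It was thus higher in KO than in WT before KCl and lower after it. Its difference was -3.49 ± 0.51 on the log2 scale, with an unadjusted p of 0.000115 and an adjusted p of 0.985 in edgeR's test, and -3.51 with an adjusted p of 0.000132 in DESeq2. The KO libraries alone gave its KCl response a larger SE, 0.55, than this difference had.

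For the genes described above, the intervals of the difference were wide, and the spread shared with WT can still make them too narrow for KO. For Nr4a2 the difference was -0.23, with a 95% interval of -1.60 to 1.14, and for Arc -0.81, with an interval of -2.96 to 1.34. For Fos it was -2.01, with an interval of -3.81 to -0.21. The Ctrl libraries entered that value, with Fos at 40.3 and 66.8 CPM in KO and 14.3 and 13.9 CPM in WT, while the KCl libraries were at 1371 and 4610 CPM in KO and 3474 and 2861 CPM in WT and overlapped. Dusp1 was higher in KO in the Ctrl libraries, at 20.9 and 31.3 against 10.35 and 10.95 CPM, and lower in KO in both KCl libraries, at 191 and 666 against 986 and 812 CPM, a difference of -2.36 (-4.11 to -0.61). Nptx2 differed by -1.10 (-2.18 to -0.03), with 21.1 and 34.3 CPM in WT KCl. Hes5 differed by 1.98 (0.09 to 3.87), with 12.2 and 11.5 CPM in WT Ctrl and 0.844 and 0.529 CPM in WT KCl. None of these 4 passed edgeR's test after adjustment over all genes, where the adjusted p was 0.985 for Fos, Dusp1, Nptx2 and Hes5 alike. Over 17 alternatives the difference of Dusp1 passed in 3, with an adjusted p from 0.00473 to 1, and that of Fos in 1, with an adjusted p from 0.0274 to 1. For Bdnf and Pcsk1 the differences were -0.17 and 0.10, within their standard errors of 0.40 and 0.42.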

How the data were processed

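RNA-seq of soma fractions was used in 2 libraries for each genotype and treatment. The authors aligned paired reads to mm10 with STAR 2.7.7a, and deposited raw fragment counts per gene from featureCounts 2.0.1 (GRCm38 release 97, all exons, unstranded, multimapping reads counted, duplicates kept). Genes with near-identical copies, antisense or overlapping partners are therefore uncertain. The deposited table holds 55573 genes, of which 55394 matched a symbol, and 37 mitochondrially encoded genes were left out. The authors' deposited counts of DART-seq sites per RNA were used as labels of genes. The authors' neurite enrichment tables (fold changes and p-values) and site positions were not used.

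Genes averaging 10 counts or more were tested with edgeR 4.0.16 (R 4.3.3; TMM, glmQLFit, two-sided, Benjamini-Hochberg over all genes). A call needed an adjusted p of at most 0.05 and at least 2-fold. CPM values were computed from TMM-scaled library sizes. The study's methods draw Ctrl and KCl cultures from the same litter but do not tie the replicate numbers to litters, so that the numbers pair the cultures is an assumption, and a fit with the replicate number as a block was run as the first alternative. Replicate deviations of Ctrl and KCl correlated across genes with r = 0.14 in KO soma. DESeq2 1.42.0, other scalings, filters, library sets, a length correction and leaving out each library were further alternatives. The scripts were tested on simulated data.

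Named genes were Mettl3, a set list of activity genes, genes passing the block fit, the 5 smallest p, the 5 whose pairs differed most, and up to 4 members of each list. The members and lists were chosen with earlier results of these data known.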

Additional observations from a re-analysis of the deposited data

Results flagged for a closer look

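For 5 abundant genes both KO pairs lay below 0 and both WT pairs above 0, and the difference itself did not pass edgeR's quasi-likelihood test (adjusted p of 0.985 for each). How many of all genes showed this pattern was not counted, and 30.1% of the genes tested were lower in both KO pairs. The 5 are therefore examples and not a set that stands out. The log2 difference, KO minus WT, was -1.142 for Chga, a granin, -0.755 for Hspa8, a chaperone, -0.58 for Pkm, a glycolytic enzyme, -0.506 for Camk2a, a synaptic kinase, and -0.654 for Atp5b, an ATP synthase subunit. The KO pairs were at -1.82 and -0.15 for Chga, -0.66 and -0.18 for Hspa8, -0.62 and -0.30 for Pkm, -0.66 and -0.09 for Camk2a, and -0.43 and -0.54 for Atp5b. The WT pairs lay between 0.04 and 0.78. Camk2a is one of the 10 neuron markers, whose median log2 change in KO was -0.94 in pair 1 and -0.22 in pair 2, and which summed to 2732 CPM in KO KCl replicate 1 against 4930 to 7126 CPM in the other KO libraries. The part of that in these 5 differences was not tested. With 2 libraries in each group, no single library could be tested as lying far from its group.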

How the results depend on the processing

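For the KCl response in Mettl3 KO soma, 0 genes passed in either direction with RLE scaling, a minimum mean of 100 counts, all 8 KO libraries, the length correction alone, or without any 1 library (0 to 0). With the replicate block 3 were higher and 0 lower, and the block changed no other call of that test. DESeq2 called 324 higher and 56 lower, and with DESeq2 and the block 301 and 63. Without a filter on low counts the numbers were 656 and 86, with all 16 libraries 231 and 46, and with the length trend removed together with the replicate block 169 and 16, of which 140 and 10 were also DESeq2 calls. For the difference between genotypes, the replicate block gave 0 and 0, DESeq2 0 larger and 1 smaller, DESeq2 with the block 10 and 4, and no filter 241 and 24. Leaving out 1 library gave 0 to 687 larger and 0 to 100 smaller. The upper ends came without KO Ctrl replicate 1, and 137 and 15 without KO KCl replicate 2, in each case with a lone library assumed to vary like the other groups. No named gene reversed its direction where it was called. The 2-fold apart rule gave 281 higher and 125 lower when scaled on genes with a mean of at least 100 counts. With the main scaling, genes at that level numbered 298 higher and 109 lower. The cause of these changes was not tested. With 2 libraries per group and an SD over 1 between replicates, a change had to be large to pass.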
